A study of Homo sapiens with 4 samples.

Results

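Periplocin, a cardiac glycoside from a medicinal plant, was followed here through the genes whose transcript level moved in opposite directions in the leukemia lines K562 and THP-1. The measure was the difference of responses, which is the log2 ratio of periplocin over DMSO in THP-1 minus the same ratio in K562, taken on CPM (counts scaled to the same total in every library) plus 1. It was computed for the 8048 of 20348 listed genes that averaged at least 10 CPM in each line. Of these, 42 were at least 2-fold higher under periplocin in one line and at least 2-fold lower in the other. In 27 of them (0.335% of the compared genes) the level was higher in THP-1 and lower in K562, and in 15 (0.186%) it was higher in K562 and lower in THP-1. Because the rule uses these same values, the counts and levels are a description and no test was applied.

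The 4 groups were K562 in DMSO, K562 in periplocin, THP-1 in DMSO and THP-1 in periplocin, each with a single poly-A RNA library prepared after 72 h, and the dose of periplocin was 100 nM in both lines. K562 is an established line from a chronic myeloid leukemia in blast crisis that carries the BCR-ABL1 fusion and can make hemoglobin, and THP-1 is an established line from an acute monocytic leukemia. They differ in lineage and in driver mutations, so lineage and genetic background cannot be told apart in any difference given here. The labels call the control cells blank, whereas their library names and the study's methods name DMSO. With 1 library per group there is no spread between replicates, and the 95% intervals below cover counting error alone.

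Cardiac glycosides bind the sodium pump and raise cell sodium and calcium, and they are known to lower protein synthesis in human cells. Both lines answer stress through shared programs. The integrated stress response acts through the transcription factor ATF4, which switches on amino acid synthesis and transport genes, and the sterol pathway acts through SREBP factors, which switch on cholesterol synthesis when sterols in the endoplasmic reticulum are low. K562 cells can mature toward red cells and THP-1 cells toward macrophages, with their own marker genes for each fate.

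Library totals ran from 16381172 to 20622719 counts, and mitochondrially encoded genes took 5.62% of counts in K562 DMSO and 2.07% in K562 periplocin, against 5.24% and 3.92% in THP-1. The line labels held against lineage markers. Summed over 12 erythroid markers, K562 had 2615 CPM in DMSO and 12865 CPM in periplocin and THP-1 had 11.9 and 9.54 CPM, with all 12 higher in K562. Over 13 monocytic and myeloid markers K562 had 111 CPM in both libraries and THP-1 had 2607 and 2520 CPM. MEIS1 alone among those 13 was higher in K562. The erythroid sum was higher under periplocin in K562 only, beside each difference between the lines reported here, and its part in them was not tested. In bulk RNA, fewer cells of a type and less RNA per cell cannot be told apart.

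Across all compared genes the responses were centred near no change, with a median log2 ratio of 0.04 in K562 and -0.01 in THP-1, and a median difference of -0.07. Opposite signs at any size were common, in 3049 genes (37.9%). The difference was above 0 in 44.9% and below 0 in 55.1% of all compared genes, the shares to set beside the list counts below. At 2-fold, 427 genes (5.31%) were higher and 478 (5.94%) lower in K562, and 270 (3.35%) were higher and 433 (5.38%) lower in THP-1. Both lines moved together at 2-fold in more genes than they moved apart, with 56 higher in both and 91 lower in both. At 1.5-fold in each line the opposite sets held 107 genes (1.33%) higher in THP-1 and 84 (1.04%) higher in K562. A difference of 2 or more was seen in 123 genes (1.53%) and of -2 or less in 59 (0.733%).

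**Figure D1:**
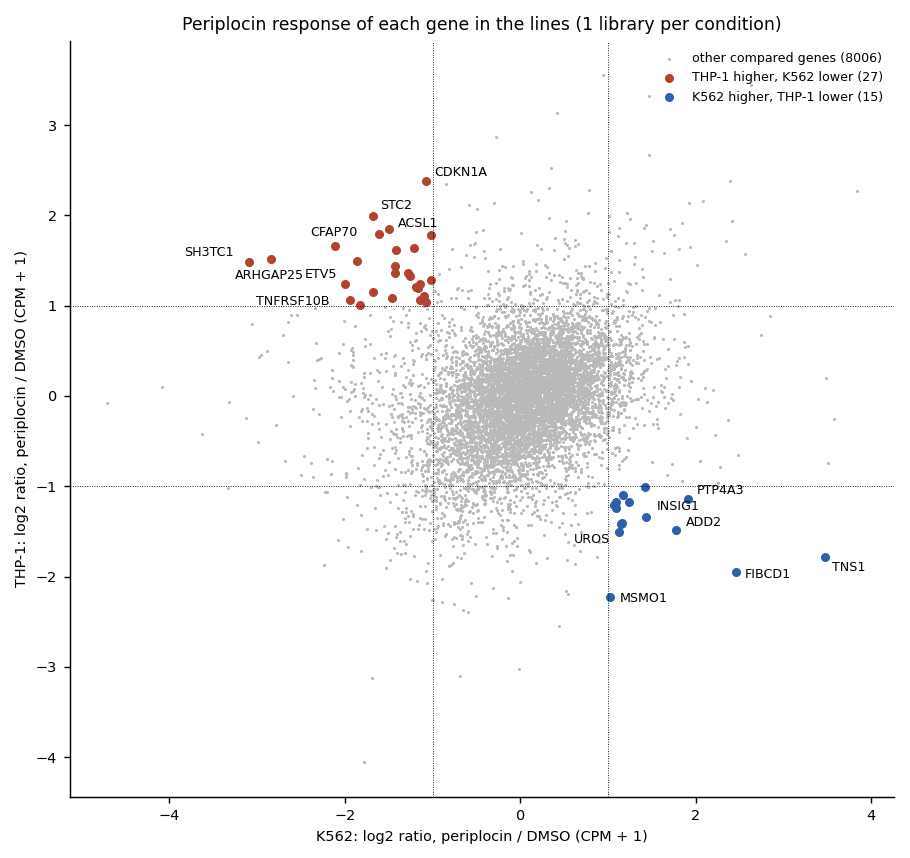
Each point is 1 of the 8048 compared genes, placed by its log2 ratio of periplocin over DMSO in K562 (x axis) and in THP-1 (y axis), on CPM plus 1. Dotted lines mark 2-fold in each direction, red points are the 27 genes higher in THP-1 and lower in K562, and blue points are the 15 genes with the reverse pattern, which reach the largest K562 increase in TNS1.

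The counting error of the difference was small for all 42 genes, with interval half-widths from 0.109 to 0.422, and the smallest single count among them was 46. The interval left out 0 for 42 of 42, which their choice by fold sets in advance, and for 6095 of all 8048 compared genes (75.7%). Counting error alone therefore separates few genes from the rest. All 42 were protein coding and they were spread over 20 chromosomes. Ordered by the smaller of their absolute log2 ratios, the members nearest the 2-fold limit were FCGR2A and HMGCS1 at 1.00 and ANTXR2 at 1.01. Just outside it lay PKIB at 0.997, STXBP5 at 0.99 and PTPRJ at 0.98. PKIB, STXBP5 and PTPRJ were higher in THP-1 and lower in K562.

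Ranked by the smaller of the absolute log2 ratios, STC2 came first in the first direction. It encodes stanniocalcin 2, a secreted glycoprotein known as a target of the unfolded protein and ATF4 responses. It stood at 151 and 46.6 CPM in the DMSO and periplocin libraries of K562 and at 3.64 and 17.5 CPM in those of THP-1. Its log2 ratio was -1.68 in K562 and 1.996 in THP-1, a difference of 3.67, with a 95% interval of 3.35 to 3.99. The THP-1 mean of 10.6 CPM lay close to the filter of 10 CPM and passed it through the periplocin library. At such a level the THP-1 ratio, and with it the rank, depends on the pseudocount. The lines began far apart and ended closer, since K562 DMSO was the highest library and THP-1 DMSO the lowest. Levels are given in this order, DMSO then periplocin, from here on.

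CFAP70, a protein of motile cilia and flagella, measured 19.96 and 3.86 CPM in K562 and 6.01 and 21.1 CPM in THP-1, a difference of 3.76 (3.35 to 4.17). ZC3H12C, a member of the CCCH zinc finger family of RNA-degrading enzymes, measured 18.5 and 5.37 CPM in K562 and 11.7 and 43.1 CPM in THP-1, a difference of 3.41 (3.06 to 3.77). In both genes the order of the lines was exchanged, with K562 above THP-1 in DMSO and below it in periplocin. The K562 means of CFAP70 and ZC3H12C, both 11.9 CPM, lay close to the filter and passed it through the DMSO library. The promoters of these leading genes are shown for the letters around their starts, and come from RefSeq on GRCh38.p14 as windows of 250 bases before to 50 bases after the annotated start. They lie at chr5:173328365-173328664, minus strand for STC2, at chr10:73358815-73359114, minus strand for CFAP70 and at chr11:110093142-110093441, plus strand for ZC3H12C. Capitals mark a match to 1 of 13 searched motifs, which for this trio is a single CCAAT box, read as ATTGG on the printed strand, 100 bases before the start of STC2.
STC2: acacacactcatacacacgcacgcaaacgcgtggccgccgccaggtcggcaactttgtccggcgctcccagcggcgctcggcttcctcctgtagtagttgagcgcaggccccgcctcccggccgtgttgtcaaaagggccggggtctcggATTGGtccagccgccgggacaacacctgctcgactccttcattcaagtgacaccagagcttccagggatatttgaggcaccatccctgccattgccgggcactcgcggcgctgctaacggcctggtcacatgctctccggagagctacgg
CFAP70: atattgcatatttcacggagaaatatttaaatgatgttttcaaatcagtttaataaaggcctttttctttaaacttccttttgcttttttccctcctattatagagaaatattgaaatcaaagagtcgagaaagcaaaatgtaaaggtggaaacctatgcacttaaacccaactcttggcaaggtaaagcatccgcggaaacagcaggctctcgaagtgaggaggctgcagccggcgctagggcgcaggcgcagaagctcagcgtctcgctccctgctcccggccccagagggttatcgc
ZC3H12C: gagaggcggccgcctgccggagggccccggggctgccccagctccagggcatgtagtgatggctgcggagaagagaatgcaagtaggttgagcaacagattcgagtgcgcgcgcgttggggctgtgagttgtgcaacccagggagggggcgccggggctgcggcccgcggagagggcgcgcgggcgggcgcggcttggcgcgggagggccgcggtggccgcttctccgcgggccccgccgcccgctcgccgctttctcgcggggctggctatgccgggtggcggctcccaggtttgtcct

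The next group of genes higher in THP-1 and lower in K562 acts on small GTPases, the cytoskeleton and membrane traffic. ARHGAP25, a GTPase-activating protein for Rac that is found mainly in blood cells, measured 30.8 and 3.44 CPM in K562 and 18.96 and 56.1 CPM in THP-1. Its difference of 4.35 (4.0004 to 4.71) was among the 3 largest positive ones of all compared genes. SH3TC1, a protein with an SH3 domain and tetratricopeptide repeats, measured 31.3 and 2.78 CPM in K562 and 6.01 and 18.7 CPM in THP-1, a difference of 4.58 (4.16 to 5.004). In both genes the K562 periplocin library was the lowest of the 4, and at 3.44 and 2.78 CPM the size of the difference depends on the pseudocount. KIFC3, a minus-end-directed kinesin, measured 142 and 38.2 CPM in K562 and 29.97 and 85.997 CPM in THP-1. EHD2, a membrane-bending ATPase of caveolae, measured 45.2 and 16.3 CPM in K562 and 8.10 and 26.9 CPM in THP-1. For KIFC3 and EHD2 the order of the lines was exchanged, with differences of 3.36 and 3.03. The log2 ratio of THP-1 over K562, in DMSO and then in periplocin, was -2.21 and 1.15 for KIFC3. For EHD2 it was -2.34 and 0.69. RAB31, a Rab GTPase of endosomes, began at like levels in both lines and parted, at 97.9 and 40.3 CPM in K562 and 83.5 and 211 CPM in THP-1. FMNL3, a formin that builds actin filaments, measured 66.6 and 26.9 CPM in K562 and 17.8 and 47.3 CPM in THP-1, and 19.7% of its exon bases are shared with PRPF40B on the annotation, so that reads there cannot be told apart without strand. ENC1, a kelch protein that binds actin, measured 29.9 and 13.5 CPM in K562 and 18.04 and 40.1 CPM in THP-1.

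Receptors and signal proteins came next. IL10RA, the ligand-binding chain of the interleukin-10 receptor, measured 40.96 and 17.99 CPM in K562 and 18.7 and 40.2 CPM in THP-1. Its THP-1 periplocin library reached the level of the K562 DMSO library. TNFRSF10B, a receptor for the death ligand TRAIL, measured 89.3 and 22.5 CPM in K562 and 42.3 and 89.6 CPM in THP-1, and here too each line in periplocin came near the other line's untreated level or passed it. FCGR2A, an activating receptor for IgG on myeloid cells, measured 63.1 and 17.03 CPM in K562 and 91.5 and 184 CPM in THP-1. It has near-identical relatives in FCGR2B and FCGR2C, between which the counting may divide reads, so its level is uncertain. ANTXR2, a cell surface receptor for collagen and for anthrax toxin, measured 274 and 135 CPM in K562 and 33.3 and 117 CPM in THP-1. For ANTXR2 the log2 ratio of THP-1 over K562 went from about -3 in DMSO to -0.21 in periplocin, the closest the lines came among these receptors.

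Downstream of receptors, ADCY6, an adenylyl cyclase that makes cAMP, measured 14.8 and 5.80 CPM in K562 and 24.7 and 79.1 CPM in THP-1. GRK3, a kinase that switches off G protein-coupled receptors, measured 39.7 and 17.5 CPM in K562 and 44.4 and 106 CPM in THP-1. RCAN1, an inhibitor of the calcium-dependent phosphatase calcineurin, measured 91.2 and 33.3 CPM in K562 and 17.6 and 46.6 CPM in THP-1. ADCY6 and GRK3 were already the higher in THP-1 before treatment, and RCAN1 was the higher in K562. S100A11, a small calcium-binding protein, was level between the lines in DMSO at 96.5 CPM in K562 and 97.0 CPM in THP-1, and stood at 41.8 and 226 CPM in periplocin. CFLAR, an inhibitor of caspase-8 at death receptors, had log2 ratios of -1.68 in K562 and 1.16 in THP-1.

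Transcription factors and cell cycle regulators were a further group. ETV5, an ETS family factor induced by ERK signalling, measured 55.002 and 12.98 CPM in K562 and 9.80 and 24.5 CPM in THP-1, a difference of 3.24 (2.94 to 3.54). JDP2, a basic leucine zipper repressor that pairs with Jun, measured 15.3 and 4.89 CPM in K562 and 26.6 and 57.7 CPM in THP-1. TGIF1, a homeobox corepressor of TGF-beta signalling, measured 51.8 and 23.97 CPM in K562 and 7.52 and 16.5 CPM in THP-1. TGIF1 stayed higher in K562 in both conditions. CDKN1A, the cyclin-dependent kinase inhibitor p21, had the largest THP-1 increase of the 42 genes and measured 50.4 and 23.3 CPM in K562 and 24.2 and 130.2 CPM in THP-1. Its log2 ratio was 2.38 in THP-1 and -1.08 in K562. The K562 decrease of CDKN1A lay close to the 2-fold limit, while its THP-1 increase did not.

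The remaining genes of this direction serve metabolism and transport. ACSL1, which activates long-chain fatty acids, measured 97.49 and 33.996 CPM in K562 and 41.1 and 150.4 CPM in THP-1. ARRDC4, an alpha-arrestin linked to glucose uptake, measured 182 and 66.97 CPM in K562 and 28.5 and 79.2 CPM in THP-1. Both began higher in K562 and ended higher in THP-1. SLC31A1, the main copper importer, measured 171 and 75.7 CPM in K562 and 43.1 and 99.7 CPM in THP-1. IDS, a lysosomal enzyme that degrades heparan and dermatan sulfate, measured 87.8 and 42.7 CPM in K562 and 52.5 and 129.6 CPM in THP-1, with 16.5% of its exon bases shared with a neighbouring gene. SLC31A1 and IDS exchanged their order between the lines in the same way.

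Over the 27 genes, 5 were higher in THP-1 than in K562 in DMSO and 24 were higher in THP-1 in periplocin. STC2, TGIF1 and ANTXR2 were the 3 that stayed higher in K562. The genes were chosen for a large difference toward THP-1, and that choice largely sets the count in periplocin. The gap between the lines, as an absolute log2 ratio, narrowed in 10 of the 27 and widened in 17, beside a narrowing in 43.9% of all compared genes. The median difference was 2.83, with a range of 2.12 to 4.58.

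In the other direction the first gene was FIBCD1, a membrane receptor for chitin and other acetylated groups. It measured 12.9 and 75.4 CPM in K562 and 17.5 and 3.78 CPM in THP-1, a difference of -4.41 (-4.78 to -4.05). Its THP-1 mean of 10.6 CPM also lay close to the filter and passed it through the DMSO library. TNS1, or tensin 1, which ties integrins to actin at adhesions, measured 10.4 and 126 CPM in K562 and 39.7 and 10.8 CPM in THP-1. Its difference of -5.25 (-5.55 to -4.96) was the largest of all 8048 genes in either direction, with a log2 ratio of 3.47 in K562. ADD2, beta-adducin of the red cell membrane skeleton, measured 118 and 409 CPM in K562 and 112 and 39.6 CPM in THP-1, a difference of -3.26 (-3.40 to -3.12). The log2 ratio of THP-1 over K562 was -0.08 for ADD2 in DMSO and -3.34 in periplocin, so that lines that began level ended apart.

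The promoter windows of these genes lie at chr9:130939198-130939497, minus strand for FIBCD1, at chr2:218010226-218010525, minus strand for TNS1 and at chr2:70768151-70768450, minus strand for ADD2. They hold none of the 13 motifs in these letters, and are shown because they lead the set, with G and C making up 78.3%, 75% and 76.7% of their bases.
FIBCD1: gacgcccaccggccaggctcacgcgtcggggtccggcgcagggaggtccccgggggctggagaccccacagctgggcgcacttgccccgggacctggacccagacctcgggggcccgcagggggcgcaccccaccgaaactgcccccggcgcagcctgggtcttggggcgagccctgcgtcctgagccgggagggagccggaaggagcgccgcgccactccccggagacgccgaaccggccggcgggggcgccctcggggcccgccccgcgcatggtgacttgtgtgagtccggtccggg
TNS1: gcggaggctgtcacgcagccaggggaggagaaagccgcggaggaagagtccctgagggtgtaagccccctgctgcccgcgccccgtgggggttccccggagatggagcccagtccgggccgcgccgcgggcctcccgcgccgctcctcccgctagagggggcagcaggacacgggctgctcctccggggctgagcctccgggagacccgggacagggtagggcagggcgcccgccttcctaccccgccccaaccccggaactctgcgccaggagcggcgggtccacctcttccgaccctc
ADD2: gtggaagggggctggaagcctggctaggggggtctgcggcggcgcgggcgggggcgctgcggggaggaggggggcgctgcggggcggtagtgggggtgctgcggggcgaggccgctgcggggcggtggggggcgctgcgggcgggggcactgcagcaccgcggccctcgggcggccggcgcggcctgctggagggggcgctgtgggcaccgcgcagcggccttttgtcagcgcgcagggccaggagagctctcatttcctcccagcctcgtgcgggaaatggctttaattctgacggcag

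Genes of the red cell program appeared again below ADD2. TMOD1, which caps actin filaments in the red cell skeleton, measured 120.4 and 285 CPM in K562 and 31.1 and 13.2 CPM in THP-1, although 45% of its exon bases are shared with TSTD2. UROS, an enzyme of heme synthesis, measured 39.9 and 87.98 CPM in K562 and 28.6 and 9.42 CPM in THP-1, a difference of -2.63 (-2.89 to -2.37). For UROS the log2 ratio of THP-1 over K562 was -0.46 in DMSO and -3.09 in periplocin. PTP4A3, a phosphatase linked to cell migration, measured 75.3 and 287 CPM in K562 and 18.04 and 7.62 CPM in THP-1. MBOAT2, which transfers fatty acids to lysophospholipids, measured 98.5 and 211 CPM in K562 and 33.8 and 14.4 CPM in THP-1. PTP4A3 and MBOAT2 were both already higher in K562 before treatment. PIGQ, of the enzyme that begins the GPI anchor, measured 38.9 and 87.5 CPM in K562 and 23.6 and 8.18 CPM in THP-1. RCL1, which takes part in making the small ribosomal subunit, measured 29.7 and 63.1 CPM in K562 and 29.1 and 12.02 CPM in THP-1. IVNS1ABP, a kelch protein that binds an influenza protein and actin, measured 85.8 and 195 CPM in K562 and 163 and 75.3 CPM in THP-1. IVNS1ABP was the higher in THP-1 in DMSO and the higher in K562 in periplocin.

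Of the 15 genes, 4 belong to the sterol pathway. INSIG1, the sterol sensor that holds SREBP in the endoplasmic reticulum and is itself an SREBP target, measured 110.2 and 299 CPM in K562 and 253 and 99.4 CPM in THP-1. LSS, or lanosterol synthase, measured 85.5 and 192 CPM in K562 and 56.6 and 20.8 CPM in THP-1. In INSIG1 and LSS the K562 periplocin library was the highest of the 4. MSMO1, which removes methyl groups from sterols, measured 25.9 and 53.7 CPM in K562 and 60.6 and 12.2 CPM in THP-1, with the largest THP-1 decrease of the 42 genes. HMGCS1, an enzyme at the entry of the mevalonate pathway, measured 88.5 and 238 CPM in K562 and 192 and 95.1 CPM in THP-1. INSIG1, MSMO1 and HMGCS1 were higher in THP-1 than in K562 in DMSO and lower in periplocin, so that the order of the lines was exchanged.

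The gap between the lines widened in 15 of the 15 genes, beside a narrowing in 43.9% of all compared genes. In DMSO 6 of them were higher in THP-1, and in periplocin 0 were. The genes were chosen for a large difference toward K562, and that choice largely sets these counts. The median difference was -2.57, with a range of -5.25 to -2.27.

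**Figure D2:**
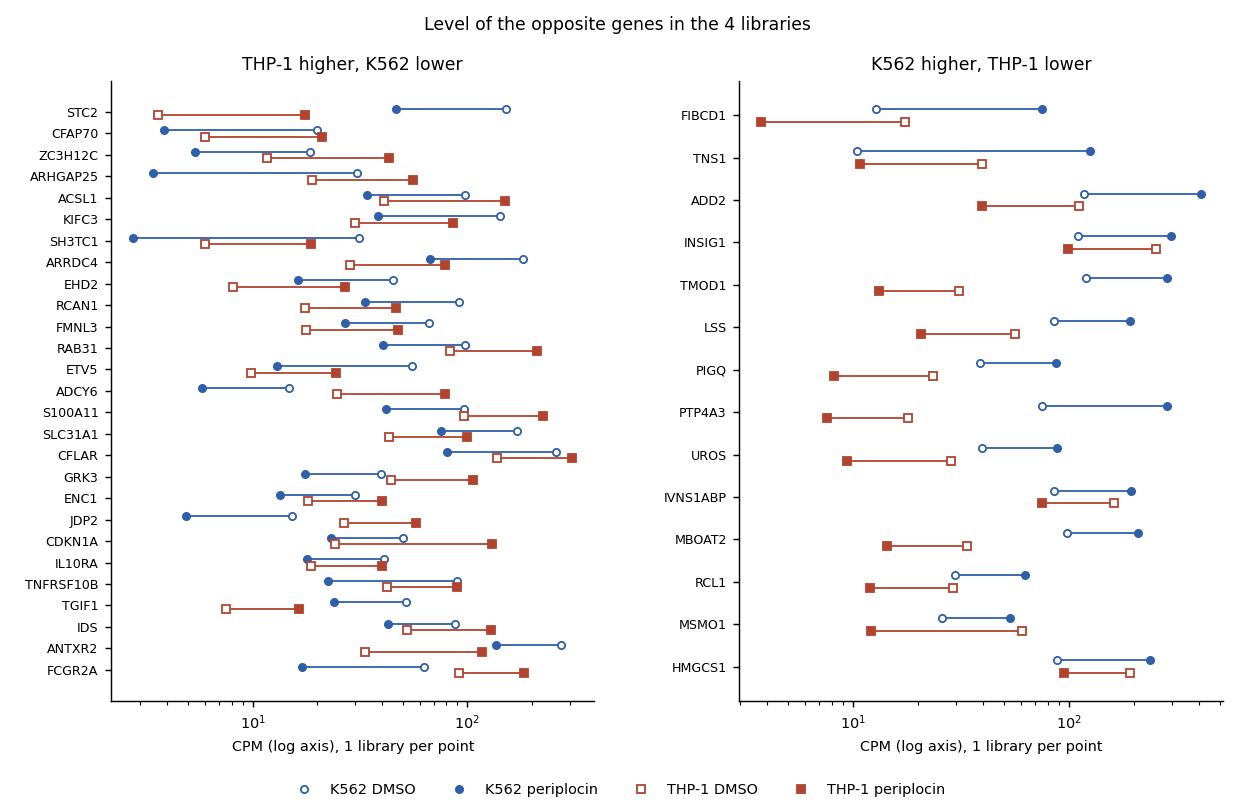
Level in CPM on a log axis of the 27 genes higher in THP-1 and lower in K562 (left) and 14 of the 15 genes with the reverse pattern (right), with 1 library per point. Open symbols are DMSO and filled symbols periplocin, and the filled THP-1 squares lie right of the filled K562 circles in 24 of 27 genes on the left and in 0 of 14 on the right.

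Cholesterol synthesis was the gene list whose lines parted most. Of 25 listed genes 21 were compared. Their median log2 ratio was 0.59 in K562 and -1.06 in THP-1, and their median difference was -1.62, beside -0.07 over all compared genes. In 20 of 21 the difference was negative, beside 55.1% of all compared genes, and in 17 it was -1 or less, a size seen in 564 (7.01%) of all compared genes. At 2-fold, 12 of 21 were lower in THP-1 (5.38% of all compared genes) and 4 were higher in K562 (5.31%). Both directions together were reached at 1.5-fold by 8 of the 21 genes (1.04% of all compared genes). At 2-fold they were reached by INSIG1, LSS, MSMO1 and HMGCS1 (0.186%). MSMO1 and HMGCS1 lay at the limit, with a smaller log2 ratio of 1.03 and 1.003, and both were no longer opposite at 2-fold under at least 1 other scaling and with GC and length medians subtracted.

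Genes of early and late steps of the pathway shared this direction. SQLE, the squalene epoxidase, measured 194 and 296 CPM in K562 and 265 and 83.7 CPM in THP-1. CYP51A1, which demethylates lanosterol, measured 60.8 and 87.6 CPM in K562 and 115 and 24.998 CPM in THP-1. The THP-1 log2 ratio was -2.16 for CYP51A1 and -1.65 for SQLE, and the K562 libraries differed by less than 2-fold. DHCR7, an enzyme of the last steps, measured 58.8 and 108 CPM in K562 and 39.03 and 10.6 CPM in THP-1. SREBF2, the gene of the transcription factor SREBP2, measured 313 and 463 CPM in K562 and 564 and 269.8 CPM in THP-1. Its level was higher in THP-1 in DMSO and higher in K562 in periplocin. EBP and HSD17B7 stood apart from the list, with differences of -0.12 (-0.35 to 0.12) and 0.04 (-0.30 to 0.38), whose intervals include 0.

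Fatty acid synthesis, which the related factor SREBP1 drives, moved in the same direction in part. Its 12 compared genes had medians of 0.22 in K562 and -0.78 in THP-1, and 10 of 12 differences were negative. FASN, the fatty acid synthase, measured 338 and 548 CPM in K562 and 639.9 and 225 CPM in THP-1, a difference of -2.20 (-2.27 to -2.13). SCD, which makes monounsaturated fatty acids, measured 692 and 837 CPM in K562 and 619.8 and 212 CPM in THP-1, a difference of -1.82 (-1.88 to -1.75). Unlike these, ACSL1 was among the genes higher in THP-1 and lower in K562, and ME1, which makes NADPH, had a difference of 0.47. Genes of LXR and lipid handling, which respond to high sterol, did not part as a list, with a median difference of -0.14 over 8 genes, and MYLIP, a ubiquitin ligase induced by LXR, measured 59.9 and 137 CPM in K562 and 29.6 and 26.4 CPM in THP-1.

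The promoters of the 4 sterol genes are shown because they share letters. They lie at chr7:155297628-155297927, plus strand for INSIG1, chr21:46228725-46229024, minus strand for LSS, chr4:165327419-165327718, plus strand for MSMO1 and chr5:43313363-43313662, minus strand for HMGCS1. Capitals mark the CCAAT box (CCAAT or ATTGG), which occurs in all 4 and 4 times in MSMO1, the TATA box (TATAAA) 27 bases before the start of INSIG1 and 29 before that of HMGCS1, the E-box CACGTG 55 bases before the start of INSIG1 and 41 bases after that of LSS, and an EGR motif (GCGTGGGCG) in LSS.
INSIG1: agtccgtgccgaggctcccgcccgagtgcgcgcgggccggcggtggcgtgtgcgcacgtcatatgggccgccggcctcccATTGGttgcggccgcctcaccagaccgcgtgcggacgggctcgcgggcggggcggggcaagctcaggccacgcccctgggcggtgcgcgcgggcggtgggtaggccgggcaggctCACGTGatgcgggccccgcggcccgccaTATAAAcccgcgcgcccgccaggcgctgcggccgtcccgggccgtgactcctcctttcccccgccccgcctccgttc
LSS: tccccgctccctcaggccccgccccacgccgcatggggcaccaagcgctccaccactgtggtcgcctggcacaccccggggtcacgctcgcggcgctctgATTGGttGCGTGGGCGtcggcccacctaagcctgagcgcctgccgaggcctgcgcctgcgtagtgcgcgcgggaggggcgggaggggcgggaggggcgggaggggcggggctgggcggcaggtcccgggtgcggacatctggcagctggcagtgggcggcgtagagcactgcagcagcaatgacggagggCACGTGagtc
MSMO1: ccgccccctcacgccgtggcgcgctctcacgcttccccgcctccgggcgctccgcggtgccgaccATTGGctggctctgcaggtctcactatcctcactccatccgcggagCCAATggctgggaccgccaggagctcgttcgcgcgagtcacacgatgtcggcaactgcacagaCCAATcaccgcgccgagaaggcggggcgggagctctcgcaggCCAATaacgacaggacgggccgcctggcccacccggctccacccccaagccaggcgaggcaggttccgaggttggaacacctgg
HMGCS1: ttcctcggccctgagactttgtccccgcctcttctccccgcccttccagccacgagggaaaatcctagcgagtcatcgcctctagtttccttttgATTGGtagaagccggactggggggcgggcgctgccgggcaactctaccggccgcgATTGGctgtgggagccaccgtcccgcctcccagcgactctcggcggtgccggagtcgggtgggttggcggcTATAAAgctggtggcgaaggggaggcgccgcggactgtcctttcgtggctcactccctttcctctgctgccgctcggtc

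A window was found for 6709 of the compared genes, and motifs were read on both strands. Among the 15 cholesterol genes with a window, 13 (86.7%) held a CCAAT box, beside 38.2% of all windows. A sterol regulatory element spelled TCACNCCAC was in 1 of the 15 windows, beside 0.999% of all. That motif was added to the search after the results were seen. Among the 12 windows of the genes higher in K562 and lower in THP-1, the E-box CACGTG was in 4 (33.3%, beside 11.1%) and the TATA box in 3 (25%, beside 4.62%). INSIG1 and LSS, printed above, are among those with the E-box, and INSIG1 and HMGCS1 among those with the TATA box. Among the 21 windows of the reverse set, a GATA motif (AGATAA) and a PU.1 core motif (GAGGAAGT) were each in 3 (14.3%, beside 4.11% and 2.52%). These are small counts, and shares of the other searched motifs in these sets are not given. A match describes letters in the window and not a bound site.

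Targets of ATF4 moved the other way. Of 38 listed genes 31 were compared, with a median log2 ratio of -1.34 in K562, 0.20 in THP-1 and a median difference of 1.57. In K562 20 of 31 were lower at 2-fold (5.94% of all compared genes) and 0 were higher. In THP-1 2 were lower (5.38%) and 4 higher (3.35%). A difference of 1 or more was found in 20 of 31, against 555 (6.9%) of all compared genes. STC2 and JDP2 were opposite at 2-fold.

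Among the targets, TRIB3, a pseudokinase that damps AKT and ATF4, measured 397 and 88.5 CPM in K562 and 67.1 and 77.5 CPM in THP-1, and SESN2, a leucine sensor that restrains mTORC1, measured 398 and 93.96 CPM in K562 and 30.1 and 42.2 CPM in THP-1. DDIT3, the factor CHOP, had log2 ratios of -0.87 in K562 and 0.87 in THP-1. CHAC1, which degrades glutathione, measured 56.9 and 18.3 CPM in K562 and 14.6 and 20.5 CPM in THP-1. TRIB3, SESN2 and CHAC1 were lower at 2-fold in K562 and within 2-fold of DMSO in THP-1. SHMT2 and PSAT1, enzymes of serine and glycine metabolism, were lower in K562 as well, at 745 and 142 CPM in K562 and 242 and 145 CPM in THP-1 for SHMT2 and 904 and 343 CPM in K562 and 288 and 247 CPM in THP-1 for PSAT1. The transporter of cystine, SLC7A11, parted through THP-1, at 200.4 and 169 CPM in K562 and 23.95 and 64.7 CPM in THP-1. The transcript of ATF4 itself differed little, with log2 ratios of 0.25 in K562 and -0.08 in THP-1. ASNS, asparagine synthetase and a known ATF4 target, measured 414 and 494 CPM in K562 and 75.1 and 77.9 CPM in THP-1, with a difference of -0.20 (-0.32 to -0.09) that ran against its list. PYCR1 and ALDH18A1, of proline synthesis, also had negative differences, -0.60 and -0.84.

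Genes of endoplasmic reticulum stress followed in part, with a median difference of 0.76 over 22 genes. SEL1L, of the pathway that removes misfolded proteins, measured 283 and 74.5 CPM in K562 and 152 and 189.9 CPM in THP-1, and HSPA5, the chaperone BiP, measured 1132 and 474 CPM in K562 and 346 and 392 CPM in THP-1. CALR, the chaperone calreticulin, ran the other way at 446 and 821 CPM in K562 and 467 and 530.3 CPM in THP-1. Aminoacyl-tRNA synthetases, several of which are ATF4 targets, had a median difference of 0.16 over 20 genes, with WARS1 at 1129.8 and 509 CPM in K562 and 232 and 405 CPM in THP-1 and VARS1 at 261 and 286 CPM in K562 and 216 and 106 CPM in THP-1 at its ends.

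**Figure D3:**
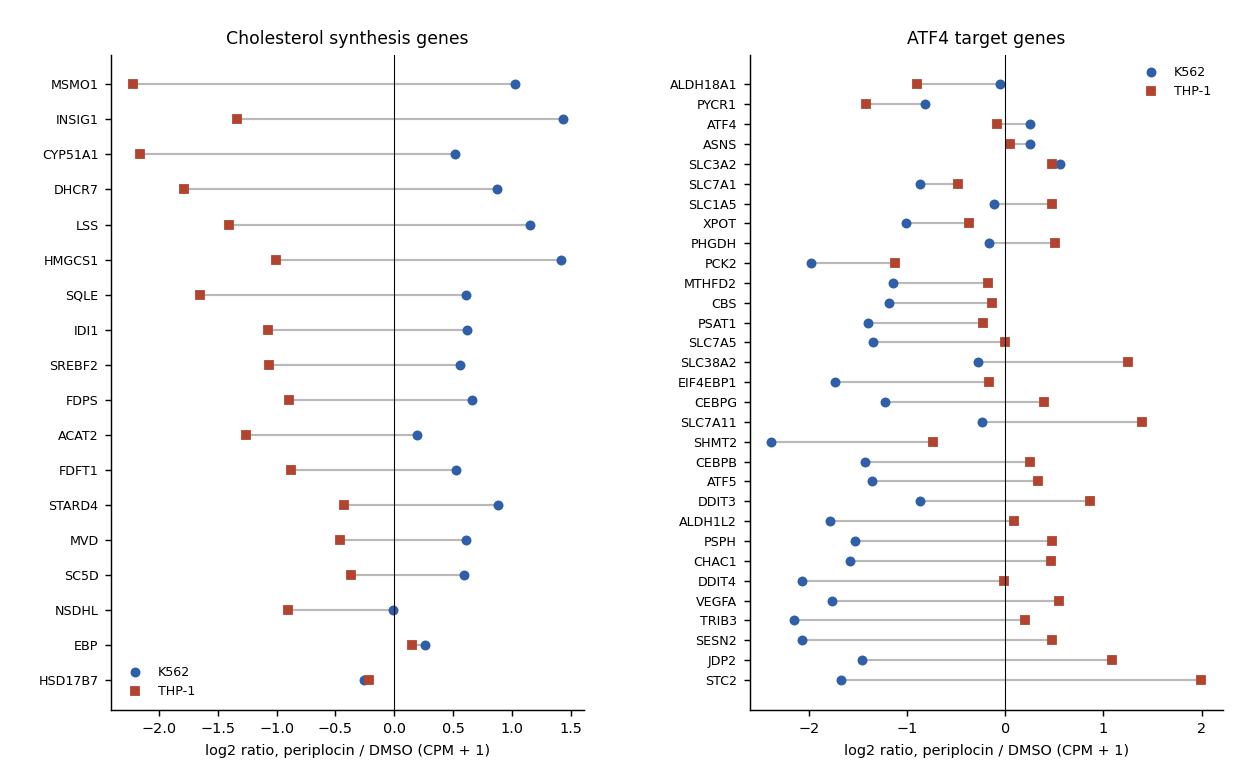
Log2 ratio of periplocin over DMSO, on CPM plus 1, for 18 of the 21 compared cholesterol synthesis genes (left) and each ATF4 target gene (right, 31 genes), with K562 as circles and THP-1 as squares and 1 library per condition. The squares lie left of the circles in 17 of 18 cholesterol genes drawn and right of them in 26 of 31 ATF4 targets.

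Red cell genes parted in the direction of K562. Globins and other defining genes did not reach 10 CPM in THP-1, so that 20 of 55 listed erythroid genes were compared. The difference was negative in 20 of 20 (55.1% of all compared genes) and -1 or less in 13 (7.01%). Median log2 ratios were 1.14 in K562 and -0.16 in THP-1. In K562 11 of the 20 were higher at 2-fold (5.31% of all compared genes). In THP-1 1 was lower, near the share of 5.38% over all compared genes. The members with a low level in THP-1 fall near or under the filter there, so these 20 are the erythroid genes that THP-1 also transcribes.

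Among enzymes of heme synthesis, FECH, which puts iron into heme, measured 88.2 and 429.7 CPM in K562 and 38.7 and 22.1 CPM in THP-1, a difference of -3.05 (-3.24 to -2.87). CPOX measured 37.9 and 145 CPM in K562 and 20.9 and 27.03 CPM in THP-1, and ALAD measured 36.9 and 97.6 CPM in K562 and 88.1 and 87.5 CPM in THP-1. The THP-1 libraries of CPOX and ALAD differed by less than 1.5-fold. CA2, carbonic anhydrase 2, had 257 and 1297 counts in K562 and 50155 and 22093 counts in THP-1 and was far higher in THP-1, with a difference of -3.21 (-3.40 to -3.03), the largest of the list in size. ERMAP, a red cell surface protein, measured 152 and 632 CPM in K562 and 132 and 79.6 CPM in THP-1. TFRC, the transferrin receptor that brings iron in, measured 641 and 1741 CPM in K562 and 246 and 239.6 CPM in THP-1, with a change in K562 alone. UROD, another heme enzyme, and LMO2, a transcription cofactor, had the smallest differences of the list, -0.18 and -0.15.

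Receptors of the TNF family and their caspases parted toward THP-1, and 12 of 37 listed genes were compared. Their difference was positive in 12 of 12, beside 44.9% of all compared genes, with a median of 0.94. Without a filter on low levels this median was 0.39. Beside TNFRSF10B and TNFRSF1A, which was lower in K562 at a log2 ratio of -2.95, CASP8, the initiator caspase at death receptors, measured 21.7 and 22.6 CPM in K562 and 52.1 and 124 CPM in THP-1. Other parts of the pathway differed less, with TNFSF9 at 0.39 (0.05 to 0.73) and RIPK1 at 0.44 (0.24 to 0.64).

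**Figure D4:**
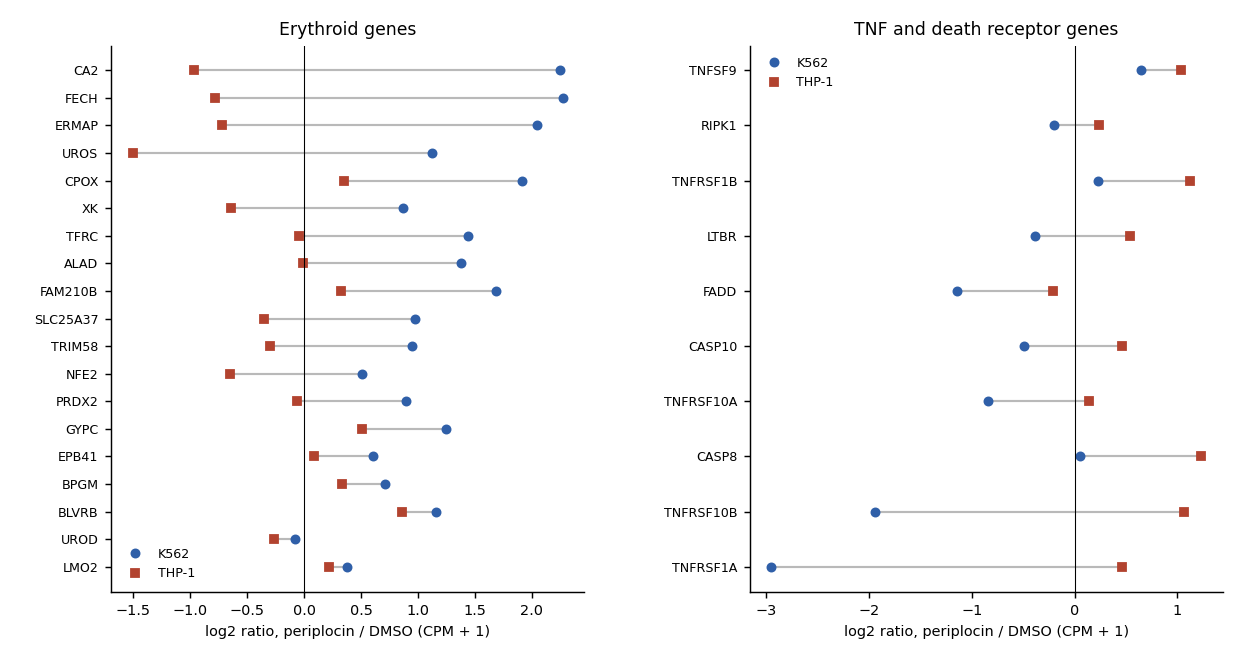
Log2 ratio of periplocin over DMSO, on CPM plus 1, for 19 of the 20 compared erythroid genes (left) and 10 of the 12 TNF and death receptor genes (right), with K562 as circles and THP-1 as squares and 1 library per condition. The squares lie left of the circles in 19 of 19 erythroid genes drawn and right of them in 10 of 10 death receptor genes.

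Of 43 listed receptor genes for chemokines and cytokines 13 were compared. The difference was positive in 13 of 13, beside 44.9% of all compared genes, with medians of -0.39 in K562 and 0.86 in THP-1. Their median difference of 0.90 was smaller without the filter on low levels, as given below. TGFBR1, the type I receptor for TGF-beta, measured 199.9 and 119.9 CPM in K562 and 113 and 239.7 CPM in THP-1, and IL13RA1, a chain of the interleukin-13 and interleukin-4 receptor, measured 110.5 and 59.2 CPM in K562 and 94.2 and 177 CPM in THP-1. IL10RA was the member opposite at 2-fold (0.335% of all compared genes), and 3 of 13 were opposite at 1.5-fold (1.33%). IL17RA and IL6ST had the smallest differences, 0.14 and 0.22, and the interval for IL17RA, -0.06 to 0.33, includes 0.

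Integrins and adhesion genes had medians of -0.27 in K562 and 0.57 in THP-1 over the 15 of 41 listed genes that were compared. ICAM1, a ligand of leukocyte integrins, parted through THP-1, at 77.7 and 64.1 CPM in K562 and 3.05 and 28.6 CPM in THP-1, and FERMT3, or kindlin-3, which activates integrins in blood cells, measured 181 and 109.96 CPM in K562 and 106 and 243 CPM in THP-1. The difference was positive in 11 of the 15 and negative in SELPLG, TLN1, ITGAV and ICAM3. SELPLG, the ligand of P-selectin, measured 28.2 and 59.2 CPM in K562 and 115 and 74.4 CPM in THP-1, a difference of -1.67 (-1.85 to -1.49), and TLN1, or talin-1, which ties integrins to actin, had a difference of -0.54 (-0.60 to -0.49). Feedback genes of ERK signalling had medians of -0.61 and 0.46 over the 6 of 24 listed genes that were compared. Besides ETV5, RASSF5, a Ras effector, measured 105 and 70.9 CPM in K562 and 87.1 and 198 CPM in THP-1 and SPRED2, an inhibitor of Ras signalling, measured 98.2 and 46.01 CPM in K562 and 65.8 and 87.9 CPM in THP-1. DUSP7, a phosphatase for ERK, had a difference of -0.61 in the reverse direction.

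Targets of p53 had medians of -0.29 in K562 and 0.37 in THP-1 over 19 genes, and a positive difference in 14 of them. CDKN1A and TNFRSF10B were opposite at 2-fold. Both lines are known to lack working p53, and these genes also answer other factors. Of the list, ZMAT3, an RNA-binding protein, measured 47.5 and 33.1 CPM in K562 and 20.3 and 41.1 CPM in THP-1, while CCNG1, or cyclin G1, ran the other way at 279 and 589 CPM in K562 and 462 and 597 CPM in THP-1 and AEN, an exonuclease, had a difference of -0.96.

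Genes of mitosis were higher in K562 and near their control level in THP-1. The difference was negative in 45 of 47 (55.1% of all compared genes) and -1 or less in 19 (7.01%), with medians of 0.87 and 0.03. In K562 22 of 47 were higher at 2-fold (5.31%). In THP-1 0 were higher (3.35%) or lower (5.38%). KIF20A, a kinesin of cytokinesis, measured 34.8 and 163 CPM in K562 and 44.6 and 46.8 CPM in THP-1, and BUB1, a kinase of the spindle checkpoint, measured 108 and 358 CPM in K562 and 152 and 149 CPM in THP-1. DNA replication genes had a median difference of -0.57 over 52 genes, with median log2 ratios of -0.13 in K562 and -0.68 in THP-1. POLD1, the catalytic chain of DNA polymerase delta, was higher in K562 and lower in THP-1, at 90.5 and 198 CPM in K562 and 120.4 and 68.2 CPM in THP-1. Ribosome biogenesis genes had a median difference of -0.63 and were negative in 44 of 47 (55.1% of all compared genes). At 2-fold 18 of 47 were lower in THP-1 (5.38%) against 1 in K562 (5.94%). NOLC1, a nucleolar phosphoprotein, measured 182 and 235 CPM in K562 and 196 and 85.997 CPM in THP-1.

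Mitochondrially encoded genes had a positive difference in 13 of 13 with no member opposite at 2-fold, since the medians were below 0 in both lines, at -1.24 in K562 and -0.28 in THP-1. MT-CO2, a subunit of cytochrome c oxidase, measured 5471 and 1625 CPM in K562 and 3631 and 3309 CPM in THP-1, and MT-ND6, the subunit read from the other strand, had a difference of 0.05 (-0.05 to 0.14). Nuclear genes of oxidative phosphorylation had a median difference of -0.32 over 72 genes, opposite in sign to that of the mitochondrial set.

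Helix-loop-helix factors of the ID and E protein families had negative differences in 4 of 4 compared genes, out of 12 listed. ID2, an inhibitor of E proteins, measured 6.23 and 80.1 CPM in K562 and 46.6 and 53.8 CPM in THP-1, a difference of -3.29 (-3.57 to -3.005), and TCF3, which encodes the E proteins E12 and E47, measured 224 and 355 CPM in K562 and 144 and 84.6 CPM in THP-1. Actin cytoskeleton genes had a positive difference in 28 of 31, with a median of 0.67. FLNA, or filamin A, measured 2153 and 477 CPM in K562 and 20.9 and 22.5 CPM in THP-1, LCP1, or plastin-2, measured 728 and 150.2 CPM in K562 and 1462 and 1962 CPM in THP-1, and TPM4, a tropomyosin, measured 371 and 73.5 CPM in K562 and 183 and 241 CPM in THP-1. In FLNA, LCP1 and TPM4 the K562 decrease made up most of the difference.

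**Figure D5:**
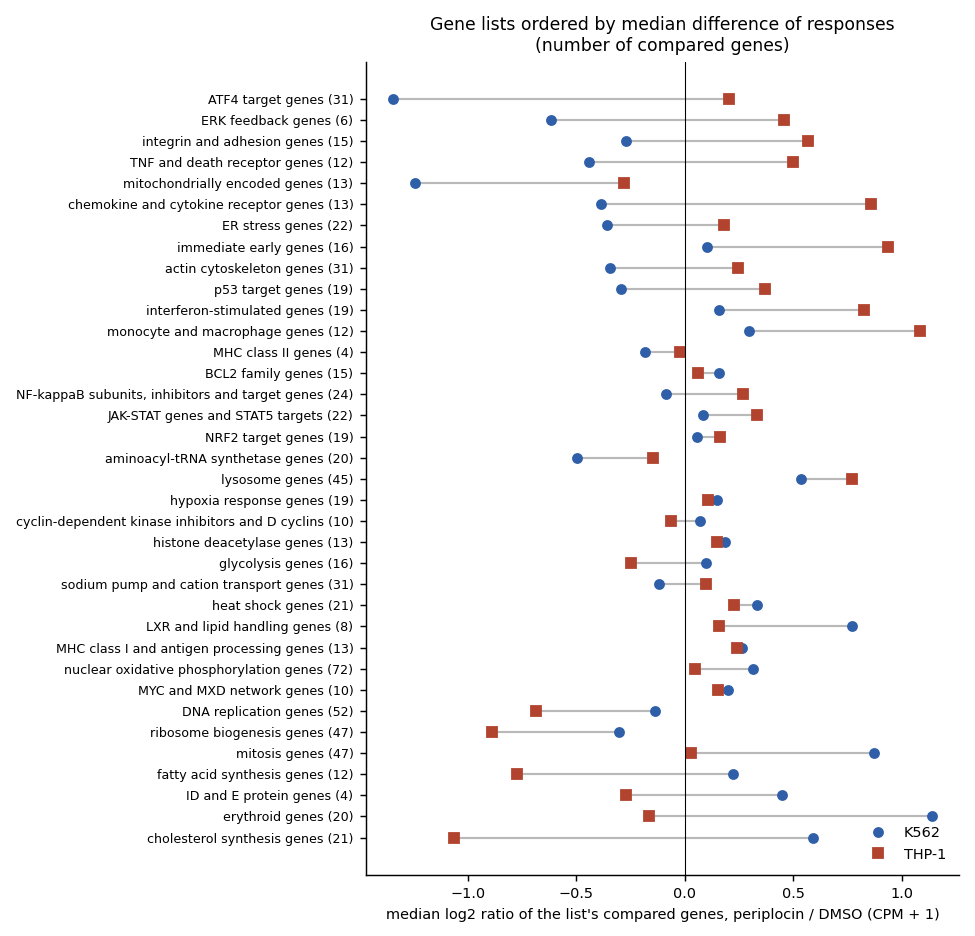
Median log2 ratio of periplocin over DMSO, on CPM plus 1, in K562 (circles) and THP-1 (squares) for the 36 gene lists with at least 4 compared genes, ordered by their median difference. Cholesterol synthesis and erythroid genes lie at the bottom with medians of 0.59 and 1.14 in K562 against -1.06 and -0.16 in THP-1, and ATF4 targets lie at the top with -1.34 against 0.20.

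Among the largest differences of all, some were opposite at 2-fold, such as SH3TC1, ARHGAP25, TNS1 and FIBCD1, and others came mostly from K562. TMEM154, a little-studied membrane protein, measured 48.8 and 0.906 CPM in K562 and 76.6 and 72.5 CPM in THP-1, a difference of 4.63 (4.25 to 5.005), and AKNA, a protein of centrosomes with an AT-hook, measured 277 and 15.3 CPM in K562 and 56.3 and 60.3 CPM in THP-1, a difference of 4.18 (3.97 to 4.39). VSIR, the immune checkpoint VISTA, measured 106 and 11.8 CPM in K562 and 127 and 220.4 CPM in THP-1. SH3BP2, an adaptor of Syk signalling, measured 108 and 16.8 CPM in K562 and 114 and 213 CPM in THP-1, and FMNL1, a leukocyte formin, measured 92.9 and 13.9 CPM in K562 and 86.2 and 153 CPM in THP-1. For VSIR, SH3BP2 and FMNL1 the THP-1 increase stayed under 2-fold. On the negative side CHST3, a sulfotransferase of chondroitin, measured 14.3 and 174 CPM in K562 and 17.2 and 9.82 CPM in THP-1, a difference of -4.26 (-4.56 to -3.96). ACSS1, a mitochondrial acetyl-CoA synthetase, measured 0.916 and 21.9 CPM in K562 and 14.3 and 11.8 CPM in THP-1. Its K562 mean of 11.4 CPM passed the filter through the periplocin library. The lower K562 library of TMEM154 and of ACSS1 lay under the pseudocount of 1 CPM, so the size of both differences depends on it. SLC2A1, the glucose transporter GLUT1, measured 149.9 and 843 CPM in K562 and 221 and 140.2 CPM in THP-1, a difference of -3.13 (-3.23 to -3.04). In CHST3 and SLC2A1 the THP-1 libraries were lower under periplocin by less than 2-fold, and in ACSS1 they differed by a log2 ratio of -0.25.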

How the data were processed

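RNA-seq libraries of K562 and THP-1 cells in DMSO or periplocin were analysed, 1 per group. The authors extracted RNA with TRIzol, enriched poly-A RNA and sequenced paired-end reads, on the T7 platform in the methods and on another instrument in the labels. They deposited an expected count per gene and library, an estimated count that need not be whole, neither normalized nor pooled. The submitters' processing notes list HISAT2, StringTie 1.3.1 and hg38 without roles. The counting program and the annotation are not given in the sources used here, nor is strandedness. The table had 0 columns that were not used.

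The expected counts were rounded and scaled to CPM by library totals, and log2 ratios were taken with a pseudocount of 1 CPM over genes averaging 10 CPM or more in each line. Intervals were 95% Poisson intervals of the difference. Real error can only be larger, since ambiguous reads may have been divided between genes. The calculation of the opposite sets and of the difference was first checked on simulated Poisson counts. These held planted changes past the 2-fold limit and no variation between replicates, so the check says nothing of real cultures. No p-value was computed, since the difference has 0 residual degrees of freedom. Samples were grouped by their labels.

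Coordinates, exons, transcript length and GC content came from GENCODE release 29 on GRCh38, in which 20118 of 20348 identifiers were found, and promoters from RefSeq on GRCh38.p14, where the window listed first for a symbol was used, which may not be the start in use in these cells. Genes present on both sex chromosomes had their reads split between identical entries, and 7 compared entries repeat another. Scripts ran in Python 3.11.15 (numpy 2.4.6, pandas 2.3.3) with plots from matplotlib 3.10.9, and edgeR 4.0.16 and DESeq2 1.42.0 in R 4.3.3 gave alternative scaling factors only.

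The genes, the 40 gene lists (36 with at least 4 compared genes) and the motifs were chosen with earlier results of these data known. Named genes are the 15 most opposite genes in each direction, the 10 with the largest difference each way, the opposite genes and the 2 at each end of every list, and the 3 on either side of the 2-fold limit. Picked from list members once their values were known, beyond that rule, were ALAD, ASNS, ATF4, CASP8, CHAC1, CPOX, CYP51A1, DDIT3, DHCR7, ERMAP, FLNA, HSPA5, ICAM3, IL13RA1, ITGAV, PSAT1, RIPK1, SESN2, SHMT2, SPRED2, SQLE, SREBF2, TFRC, TGFBR1, TRIB3, ZMAT3, ATP1B3, CTSB and the opposite genes ranked below 15 that are in no list. One opposite gene and some list members are counted but not reported here. Alternatives were other scalings, pseudocounts, filters and folds, unrounded counts, removal of GC and length medians, and assumed dispersions.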

Additional observations from a re-analysis of the deposited data

Results flagged for a closer look

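Of the 42 opposite genes, the 41 below are listed because their single periplocin library moved 1 way against DMSO in one line and the opposite way in the other, by at least 2-fold each. None of these differences between the lines was tested, since 1 library per group leaves no spread to test against.

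Among the genes higher in THP-1 and lower in K562, the difference of log2 ratios was 4.58 for SH3TC1, 4.35 for ARHGAP25, 3.76 for CFAP70, 3.67 for STC2, 3.46 for CDKN1A, 3.41 for ZC3H12C, 3.36 for KIFC3, 3.34 for ACSL1 and 3.24 for ETV5. It was 3.03 for EHD2, 3.005 for TNFRSF10B, 2.87 for ARRDC4, 2.85 for ADCY6, 2.83 for FCGR2A, 2.83 for CFLAR, 2.80 for ANTXR2, 2.79 for RCAN1 and 2.64 for FMNL3. It was 2.59 for RAB31, 2.55 for JDP2, 2.40 for S100A11, 2.38 for GRK3, 2.35 for SLC31A1, 2.31 for IDS, 2.21 for IL10RA, 2.20 for ENC1 and 2.12 for TGIF1 in the last of this set.

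Among the genes higher in K562 and lower in THP-1, the difference was -5.25 for TNS1, -4.41 for FIBCD1, -3.26 for ADD2, -3.25 for MSMO1, -3.06 for PTP4A3, -2.77 for INSIG1, -2.63 for UROS and -2.57 for PIGQ. It was -2.56 for LSS, -2.42 for HMGCS1, -2.41 for TMOD1, -2.27 for RCL1, -2.27 for IVNS1ABP and -2.27 for MBOAT2 in the other members.

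Of the gene lists, 7 had median log2 ratios beyond 0.25 on opposite sides of 0 in the lines, which was not tested either. The median difference was 1.27 for the ERK feedback genes, 1.03 for the integrin and adhesion genes, 0.94 for the TNF and death receptor genes, 0.90 for the chemokine and cytokine receptor genes and 0.63 for the p53 target genes. It was -1.62 for the cholesterol synthesis genes and -0.98 for the ID and E protein genes.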

How the results depend on the processing

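No paired analysis was possible because each group has 1 library and no replicate could be left out. The 27 and 15 opposite genes and the 123 and 59 genes with a difference of at least 2 in size depended mainly on the filter and the fold. With a mean of at least 1 CPM there were 60 and 26 opposite genes and 231 and 121 large differences, with at least 30 CPM 14 and 7 and 61 and 29, and with no filter 64 and 30 and 321 and 213. At 1.5-fold in each line 107 and 84 genes were opposite, and at 4-fold 0 and 0. A pseudocount of 5 CPM left 15 of the 27, without CDKN1A, TNFRSF10B, ETV5, JDP2, IDS, GRK3, IL10RA, FCGR2A, ANTXR2, ENC1, ADCY6 and TGIF1. It left 10 of the 15, without MSMO1, HMGCS1, TMOD1, PTP4A3 and RCL1. The other scalings kept 24 of the 27 and 13 of the 15 throughout. The exceptions were HMGCS1, MSMO1 and FCGR2A, whose smaller log2 ratios were 1.003 to 1.03, and JDP2 and ADCY6, whose K562 means of 10.1 and 10.3 CPM lay at the filter. With GC and length medians subtracted, CFLAR, IL10RA, MSMO1, HMGCS1, MBOAT2 and PTP4A3 were no longer opposite at 2-fold. Under all scaling, pseudocount and GC and length settings together, 14 of the 27 and 9 of the 15 stayed opposite. If replicates were to vary with a dispersion of 0.16, the interval of the difference left out 0 for 26 of the 27 and 15 of the 15. These genes were chosen for large differences, so that choice largely sets this count. It says nothing of how replicates would vary.

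Of 36 list medians and 180 named genes, none with a difference of at least 1 in size turned its direction under any setting run. That limit on size and the choice of the named genes largely set this result. Without a filter the median difference of the TNF and death receptor genes was 0.39 and that of the chemokine and cytokine receptor genes 0.46, and with GC and length medians subtracted that of the nuclear oxidative phosphorylation genes was -0.23. Depth limits little here, since the smallest count among the opposite genes was 46, whereas the spread between cultures is unknown.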

Other observations

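In several further gene groups most members had a higher response in THP-1. Of 53 listed interferon-stimulated genes 19 were compared. Their difference was positive in 18 of 19, with medians of 0.16 in K562 and 0.83 in THP-1. OAS3, which makes the activator of RNase L, measured 44.6 and 24.5 CPM in K562 and 25.02 and 131 CPM in THP-1. Its log2 ratios were -0.84 and 2.35. Immediate early genes had a positive difference in 13 of 16, with medians of 0.10 and 0.94. ZFP36L1, which speeds the decay of AU-rich transcripts, measured 52.2 and 69.8 CPM in K562 and 1.79 and 23.5 CPM in THP-1, whereas MYC was lower in both lines at 325 and 174 CPM in K562 and 286 and 57.8 CPM in THP-1. Of 59 listed monocyte and macrophage genes 12 were compared. At 2-fold in THP-1 7 of 12 were higher (3.35% of all compared genes) and 1 lower (5.38%). In K562 4 were higher (5.31%) and 4 lower (5.94%). Medians were 1.09 in THP-1 and 0.30 in K562, and the difference was positive in 9. LGALS3, or galectin-3, measured 11.8 and 12.9 CPM in K562 and 16.3 and 82.3 CPM in THP-1, while the lysosomal protease gene CTSB was higher in both lines at 309 and 1111 CPM in K562 and 140.2 and 530.4 CPM in THP-1. Lysosome genes had medians of 0.53 in K562 and 0.77 in THP-1, with 0 of 45 lower at 2-fold in either line. Higher at 2-fold were 11 in K562 (5.31% of all compared genes) and 13 in THP-1 (3.35%).

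Other lists were centred near each other with members that stood apart. JAK-STAT genes had a median difference of 0.24, but PIM2, a survival kinase and STAT5 target, measured 527 and 141 CPM in K562 and 20.3 and 21.5 CPM in THP-1, STAT5A measured 784 and 229 CPM in K562 and 19.8 and 19.9 CPM in THP-1 and BCL6, a repressor, was higher in both lines at 17.8 and 268 CPM in K562 and 3.98 and 22.97 CPM in THP-1. In the glycolysis list, with a median difference of -0.07, PKM, or pyruvate kinase, measured 262 and 221 CPM in K562 and 618 and 1515 CPM in THP-1, opposite in direction to SLC2A1. Sodium pump and cation transport genes had a median difference of -0.08 over 31 genes, and ATP2A3, a calcium pump of the endoplasmic reticulum, measured 878 and 86.95 CPM in K562 and 65.8 and 62.5 CPM in THP-1, while ATP1B3, a beta chain of the sodium pump, was higher in both lines at 92.9 and 328 CPM in K562 and 93.3 and 197 CPM in THP-1. BMF, a BCL2 family member that promotes cell death, was higher in both lines at 7.203 and 21.7 CPM in K562 and 14.8 and 157 CPM in THP-1. FTH1, the ferritin heavy chain, measured 3513 and 4039.7 CPM in K562 and 413 and 1855 CPM in THP-1 within the NRF2 target list, whose median difference was 0.23. MYCL, a relative of MYC, measured 44.8 and 10.3 CPM in K562 and 27.01 and 40.8 CPM in THP-1, with a median difference of -0.32 in its list.

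The remaining list medians of the difference were 0.44 for MHC class II genes (4 compared), 0.37 for the BCL2 family (15), 0.30 for NF-κB subunits, inhibitors and targets (24), 0.06 for hypoxia response genes (19), 0.05 for cyclin-dependent kinase inhibitors and D cyclins (10), -0.04 for histone deacetylase genes (13), -0.13 for heat shock genes (21) and -0.14 for MHC class I and antigen processing genes (13). Over all compared genes the median difference was -0.07.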
